A study of Mus musculus with 30 samples.

Results

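Transcript levels of 10 genes that encode sensors of nucleic acids and the proteins that serve them were followed through quadriceps muscle of 30 mice. The set held the endosomal Toll-like receptors Tlr3, Tlr7, Tlr8, Tlr9 and Tlr13, their chaperone Unc93b1, the adaptor Myd88, the cytosolic RNA sensor Ifih1 (MDA5), the cytosolic DNA sensor Cgas and its partner Sting1. They were listed by name, with no threshold on a measured value, but with earlier results of these data known. They are 10 of the 56748 genes in the count table. A filter on low counts kept 17518 genes for testing, of which 9 were members. Tlr9 was the gene that did not pass.

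An antisense oligonucleotide against the CUG repeat, L9, was given to HSA-LR mice, a model of myotonic dystrophy, either free or conjugated to a bottlebrush polymer (pacDNA-L9), and poly(A) RNA of the quadriceps was sequenced. HSA-LR mice (homozygous line 20b, labelled DM1) carry a human skeletal actin transgene with an expanded CTG repeat whose expression is restricted to skeletal muscle. HSA-LR mice were 8 weeks old when injected by the tail vein, and muscle was taken 2 weeks after the last injection. The age recorded for the wild-type mice and the untreated HSA-LR mice was also 8 weeks. The strain, where the labels give it, was FVB/N. There were 5 wild-type mice (WT) and 8 HSA-LR mice (NT), all without treatment. The other HSA-LR mice were given pacDNA-L9 in a dose of 5.3 (4 mice), 21.2 (3 mice) or 42.4 mg/kg (3 mice), free L9 in the lowest of these doses (3 mice), the polymer alone (Brush, 40 nmol, 2 mice) or the polymer with a scrambled oligonucleotide (pacDNA-Scr, 5.3 mg/kg, 2 mice). Doses are given as oligonucleotide mass, and the 2 higher doses of pacDNA-L9 were split over repeated injections, so dose and number of injections cannot be told apart.

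Endosomal Toll-like receptors read nucleic acids that a cell has taken up: Tlr3 binds double-stranded RNA, Tlr7 and Tlr8 bind single-stranded RNA and its breakdown products, Tlr9 binds unmethylated CpG DNA, and Tlr13, which mice have and humans lack, binds a conserved stretch of bacterial ribosomal RNA. Unc93b1 carries these receptors from the endoplasmic reticulum to endosomes, and all of them except Tlr3 signal through Myd88. Ifih1 senses long double-stranded RNA in the cytosol, while Cgas senses cytosolic DNA and makes the cyclic dinucleotide that activates Sting1. In muscle, Tlr7, Tlr8, Tlr9 and Tlr13 are known mainly from macrophages and other blood-derived cells, whereas the cytosolic sensors and Tlr3 are expressed more widely.

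Total counts per library ran from 13605309 to 26956558. The 6 libraries of a second deposited set (NT 7 and 8, mouse C of free L9, mouse C of the 21.2 mg/kg group, and mice C and D of pacDNA-L9 5.3 mg/kg) lay apart from the other 24 on the first principal component, which held 60.1% of the variance. In 5 of these 6, all but mouse C of free L9, each of the 37 mitochondrial genes had 0 counts. The summed level of 10 skeletal muscle markers was between 107000 and 193000 CPM (counts scaled to the TMM-adjusted library size) in every library, against 60.4 to 384 CPM for 10 macrophage markers. Because these are bulk samples, fewer cells of a type and less RNA per cell cannot be told apart. Each library was taken as 1 mouse, and the tests measure the spread between these mice. One WT library could be matched only to its group and is called the unnumbered WT mouse.

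Promoter sequence is shown for 2 X-linked receptors described in detail further on, and for the 2 members with an interferon-type motif, so that the genes can be set side by side. RefSeq promoters (build GRCm38.p6, 250 bases before to 50 bases after the annotated start, 300 bases) were at hand for 7 of the 10 members, not for Tlr7, Unc93b1 and Sting1. Both strands were searched for the core of the interferon-stimulated response element, which is GAAA, any 2 bases and GAAA again, and for GAGGAA, the core of the PU box bound by the myeloid factor PU.1. The motifs share no letters in these windows. Matches are in capitals, and a match to GAGGAA on the other strand reads TTCCTC.
Tlr13, chrX:106143025-106143324, plus strand: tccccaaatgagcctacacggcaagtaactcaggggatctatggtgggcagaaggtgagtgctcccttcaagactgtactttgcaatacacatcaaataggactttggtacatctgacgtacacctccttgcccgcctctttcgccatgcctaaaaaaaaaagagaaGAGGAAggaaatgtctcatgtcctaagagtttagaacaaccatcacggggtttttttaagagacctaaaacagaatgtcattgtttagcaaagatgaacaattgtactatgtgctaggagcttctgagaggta
Tlr8, chrX:167264280-167264579, minus strand: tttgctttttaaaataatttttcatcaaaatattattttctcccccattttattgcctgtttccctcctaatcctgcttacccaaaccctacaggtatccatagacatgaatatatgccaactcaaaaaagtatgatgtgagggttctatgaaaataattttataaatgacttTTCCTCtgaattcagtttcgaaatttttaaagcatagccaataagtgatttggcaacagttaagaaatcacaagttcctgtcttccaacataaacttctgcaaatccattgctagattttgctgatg
Ifih1, chr2:62646206-62646505, minus strand: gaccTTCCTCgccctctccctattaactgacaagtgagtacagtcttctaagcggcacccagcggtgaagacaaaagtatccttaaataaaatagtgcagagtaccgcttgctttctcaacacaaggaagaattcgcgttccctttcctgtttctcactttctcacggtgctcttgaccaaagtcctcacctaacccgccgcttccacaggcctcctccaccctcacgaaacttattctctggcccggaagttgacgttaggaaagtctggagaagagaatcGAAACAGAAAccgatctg
Myd88, chr9:119339969-119340268, minus strand: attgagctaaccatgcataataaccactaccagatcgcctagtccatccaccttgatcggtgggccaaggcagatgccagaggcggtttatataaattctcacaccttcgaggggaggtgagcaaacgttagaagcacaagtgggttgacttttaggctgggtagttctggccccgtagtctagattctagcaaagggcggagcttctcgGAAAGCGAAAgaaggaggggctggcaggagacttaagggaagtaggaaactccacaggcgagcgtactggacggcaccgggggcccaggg
The GAGGAA letters began 83 bases before the start of Tlr13 and, on the other strand, 77 bases before that of Tlr8. They were also found in the windows of Tlr9 and Ifih1, 4 of 7 members in all, and in 28.3% of 32851 promoters of the same length. The response element core was found in Ifih1, beginning 33 bases into the transcript, and in Myd88, 40 bases before the start, and in 3.44% of all promoters. These matches describe letters and were not tested for binding.

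Tlr7 and Tlr8 neighbour each other on the X chromosome (GRCm39, chrX:166086758-166113605 and chrX:166024184-166047325, both on the minus strand), and Tlr13 lies at chrX:105186810-105204533 on the plus strand. The other members are autosomal, on chromosomes 2 (Ifih1), 8 (Tlr3), 9 (Tlr9, Myd88 and Cgas), 18 (Sting1) and 19 (Unc93b1). Exons of Cgas and Myd88 overlap genes on the opposite strand over 34.4% and 16.2% of their bases (Gm68924 and Acaa1a), and those of Tlr3 and Unc93b1 over 8.2% and 1.7%. The counting options were not given in the sources used here, so reads from such a gene and its partner cannot be told apart. Levels of the 10 genes spanned a wide range. Per kb of exon, the mean over the 30 libraries was 1.05 CPM for Unc93b1, 0.996 for Myd88 and 0.888 for Sting1. The middle group was Ifih1 at 0.397 and Tlr3 at 0.381 CPM per kb, followed by Tlr7 at 0.156 and Tlr13 at 0.152. Cgas (0.0529 CPM per kb), Tlr8 (0.0512) and Tlr9 (0.0329) were lowest. Neighbours in this order overlapped in their ranges over libraries throughout. Unc93b1 was above Myd88 in 15 of 30 libraries and Tlr7 above Tlr13 in 15, whereas Sting1 was above Ifih1 in 29 and Tlr3 above Tlr7 in 27.

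Detection limits set what can be said of the low members. A floor of 3 counts in a library equalled 0.106 to 0.268 CPM (median 0.15), lowest in pacDNA-Scr B and highest in free L9 C. Unc93b1, Myd88, Sting1, Ifih1 and Tlr3 were above the floor in all 30 libraries. Tlr7 was at or under it in 3 libraries and Tlr13 in 6, while Cgas was in 14, Tlr8 in 15 and Tlr9 in 21. No count was found in 9 libraries for Tlr9, in 4 for Tlr8, in 2 for Cgas and in 1 for Tlr13. A library with no count allows up to its own floor, which was 0.132 to 0.2 CPM for the libraries without Tlr9 and 0.151 to 0.168 CPM for those without Tlr8. These limits cover counting error only.

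**Figure D1:**
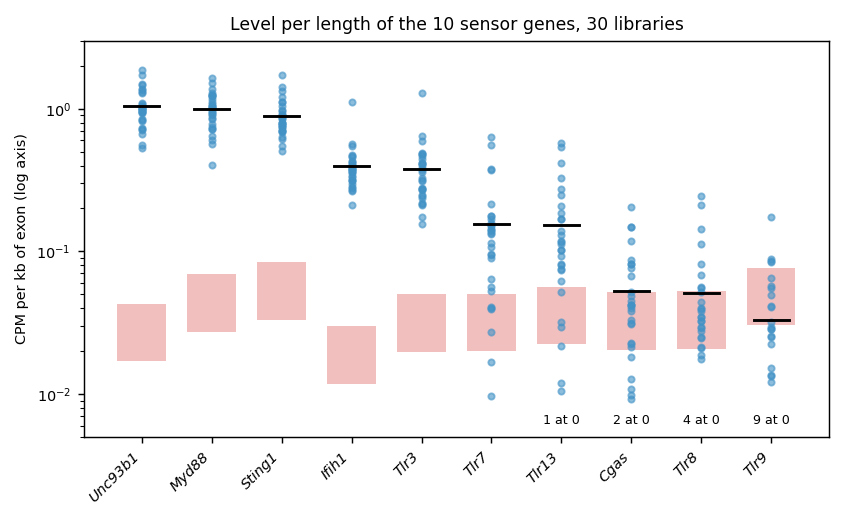
Level of each member per kb of exon (CPM per kb, log axis). Points are the libraries with at least 1 count out of 30, bars are means over all 30 libraries, red bands span the 3-count floor over libraries, and the numbers at the foot count the libraries at 0. The means of Unc93b1, Myd88 and Sting1 are near 1 CPM per kb, and the mean of Tlr9 lies within its own band.

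Tlr7 and Tlr13 rose in the muscle of mice given pacDNA-L9 at 42.4 mg/kg. Both are endosomal RNA receptors of the Myd88 branch. They were the only 2 of the 9 tested members that passed the test in any of the 9 comparisons, where a call is an adjusted p under 0.05 (edgeR quasi-likelihood, Benjamini-Hochberg over all 17518 genes). At this dose 2.57% of all tested genes were called against NT (450 genes, 336 higher and 114 lower), so 2 of 9 stands beside that share. Without mouse B of this group 63 genes were called. The median log2 fold change of the 9 members was 0.76, beside -0.06 over all tested genes, with 6 members above 0 and 3 below. This median is the value of Cgas, a gene near the floor (2, 2 and 16 counts) that was at -0.6 without mouse C. Tlr8, among the 6, passed the low-count filter only through pacDNA-L9 libraries.

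For Tlr7, the 3 mice at 42.4 mg/kg had 3.38, 2.95 and 0.736 CPM (72, 50 and 19 counts). NT mice had 0.144, 0.425 and 0.717 CPM as their lowest, median and highest value. All 3 treated mice were thus above every NT mouse, but mouse C only just, and mice A and B carried most of the difference. The fitted log2 fold change was 2.45 ± 0.55 (SE), a 5.45-fold higher level (95% interval 1.32 to 3.58 on the log2 scale, adjusted p = 0.0118, edgeR quasi-likelihood). Without mouse A the value was 2.08 (adjusted p = 0.0943) and without mouse B 2.25 (adjusted p = 0.141), so the call rests on both. Without mouse C it was 2.87 (adjusted p = 0.0062).

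The mean of Tlr7 was 0.427 ± 0.229 CPM in NT (SD, n = 8). It was 0.846 ± 0.274 CPM in mice given 5.3 mg/kg (n = 4), 1.53 ± 0.798 CPM after the middle dose (n = 3) and 2.36 ± 1.42 CPM after the highest (n = 3). At 21.2 mg/kg the mice had 0.611, 1.97 and 2.02 CPM, and at 5.3 mg/kg 0.934, 1.13, 0.837 and 0.48 CPM. Mouse A at 21.2 mg/kg and mouse D at 5.3 mg/kg lay within the NT range, and the others lay above it. The log2 fold changes against NT were 1.83 ± 0.55 at 21.2 mg/kg and 0.98 ± 0.53 at 5.3 mg/kg, and neither was called (adjusted p = 1 in both). These comparisons share the NT mice. In the first deposited set alone the values were 1.81 and 1.49. WT mice had 0.212, 0.281, 0.501, 0.3 and 0.0514 CPM, all within or below the NT range.

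Tlr13 was at 1.97, 2.54 and 1.55 CPM in the 3 mice at 42.4 mg/kg (42, 43 and 40 counts). In NT the lowest, median and highest values were 0.0569, 0.37 and 0.488 CPM. The 3 treated mice were close to each other, and all lay above the highest NT mouse. The log2 fold change was 2.64 ± 0.64, a 6.23-fold higher level (95% interval 1.31 to 3.97, adjusted p = 0.0219, edgeR quasi-likelihood). The call ended without mouse A (2.65, adjusted p = 0.0578) and without mouse B (2.44, adjusted p = 0.204), and held without mouse C (2.79, adjusted p = 0.0445). It also ended when the style of the column names was a term within the first deposited set (2.85, adjusted p = 0.0935). The columns of all 3 mice at 42.4 mg/kg name no animal, and NT 6 is the only NT mouse of that style. Against NT, this dose and the naming style are thus nearly confounded, for Tlr7 and the other genes as well.

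At the lower doses Tlr13 was again spread widely. The mice at 21.2 mg/kg had 0.555, 1.29 and 2.7 CPM, all above every NT mouse, with a log2 fold change of 2.23 ± 0.65 that was not called (adjusted p = 1). The highest of them, mouse C, was from the second deposited set, and without it the value was 1.52. At 5.3 mg/kg the 4 mice had 0.879, 1.18, 0.485 and 0.534 CPM, of which mouse C was within the NT range (log2 fold change 1.26 ± 0.62, adjusted p = 1). Group means were 0.318 ± 0.149 CPM in NT and 0.769 ± 0.324, 1.52 ± 1.09 and 2.02 ± 0.497 CPM after the low, middle and high dose (SD), and the last pair overlapped.

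Tlr8, the other single-stranded RNA receptor, was near its detection limit in most groups. It passed the low-count filter only through 4 pacDNA-L9 libraries, so its place among the tested genes depended on the groups in which it was high. At 42.4 mg/kg the mice had 1.08, 1.24 and 0.194 CPM (23, 21 and 5 counts), against 0.0963, 0.152 and 0.418 CPM as the lowest, median and highest of NT. Mice A and B were above all NT mice and mouse C was within their range. The log2 fold change was 2.08 ± 0.76 (95% interval 0.52 to 3.64) and was not called (adjusted p = 0.191). With the deposited set as a term it was 2.42 and passed (adjusted p = 0.0261). After 21.2 mg/kg the value was 1.02 ± 0.79, and after 5.3 mg/kg 0.63 ± 0.73, both with an adjusted p of 1. Mouse C of the 21.2 mg/kg group, from the second deposited set, had 0.73 CPM, and without it the value at that dose was 0.24.

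**Figure D2:**
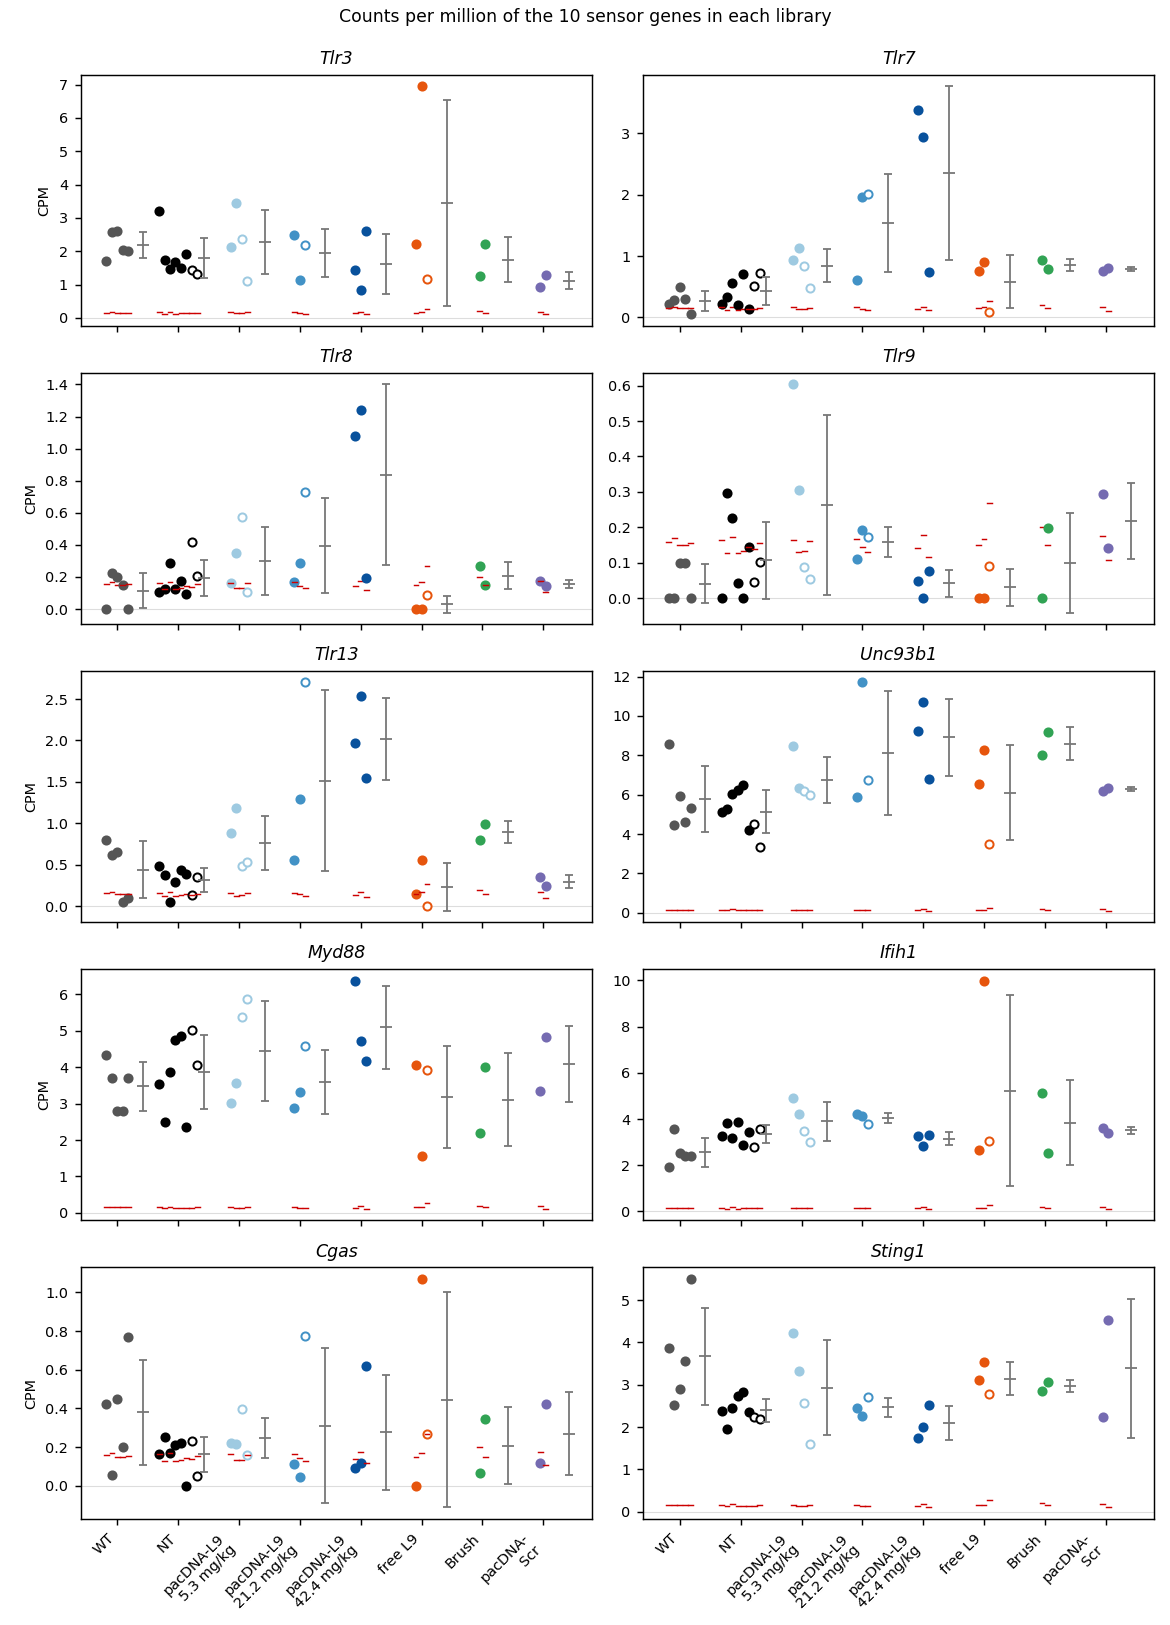
CPM of each member in every library by group. Filled points are the first deposited set and open points the second, grey bars are the group mean and SD, and short red lines mark the 3-count floor of that library. Tlr7 at 42.4 mg/kg sits between 0.736 and 3.38 CPM and Tlr13 between 1.55 and 2.54 CPM, above NT maxima of 0.717 and 0.488 CPM, and Tlr9 is around its floor in every group.

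Unc93b1, the chaperone of these receptors, was higher by less. The mice at 42.4 mg/kg had 9.24, 10.7 and 6.82 CPM, all above the NT range of 3.33 to 6.48 CPM (median 5.18). The log2 fold change of 0.79 ± 0.24 (1.73-fold, 95% interval 0.3 to 1.29) missed the threshold in edgeR's test (adjusted p = 0.0875), and passed in the DESeq2 test (0.78, adjusted p = 0.0312). At 21.2 mg/kg the values were 5.88, 11.7 and 6.74 CPM and the log2 fold change 0.65 ± 0.24 (adjusted p = 1), which was 0.29 without mouse B. At 5.3 mg/kg they were 8.46, 6.32, 6.17 and 5.98 CPM (0.39 ± 0.22, adjusted p = 1). Mouse A stood apart there, and the other 3 lay within the NT range.

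The remaining members did not pass the test at 42.4 mg/kg, and their intervals limit how far they could have moved. Myd88, the shared adaptor, was at 6.38, 4.72 and 4.18 CPM against 2.36 to 5.02 CPM in NT (log2 fold change 0.4 ± 0.29, 95% interval -0.19 to 0.99). Tlr3 was at 1.45, 0.827 and 2.6 CPM against 1.33 to 3.2 CPM (-0.13 ± 0.43, interval -1.01 to 0.75). Among the cytosolic sensors, Ifih1 was at 3.28, 2.83 and 3.33 CPM against 2.79 to 3.86 CPM (-0.09 ± 0.29, interval -0.68 to 0.51). Sting1 was at 1.74, 2.01 and 2.52 CPM against 1.95 to 2.82 CPM (-0.19 ± 0.26, interval -0.73 to 0.34). All 4 overlapped NT, and their upper bounds lay under a 2-fold higher level. Cgas was at 0.0938, 0.118 and 0.62 CPM (2, 2 and 16 counts), with an interval of -1.17 to 2.7 that leaves its direction unknown. Its value came from mouse C, without which it was -0.6 in place of 0.76.

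Tlr9 was not tested in any comparison. Its counts were 0 to 11 per library, and 9 libraries exceeded the floor. The highest were pacDNA-L9 5.3 mg/kg A (11 counts, 0.604 CPM), pacDNA-L9 5.3 mg/kg B and NT 2 (7 counts each, 0.305 and 0.297 CPM). The 3 mice at 42.4 mg/kg together had 3 counts against 18 in the 8 NT mice, a ratio of 0.436 with an exact 95% counting interval of 0.0823 to 1.49. Such intervals, here and below, pool the mice of a group and leave out the spread between them. At 21.2 mg/kg there were 10 counts in 3 mice, at 5.3 mg/kg 21 in 4, in pacDNA-Scr 9 in 2, in Brush 4 in 2 and in WT 4 in 5. The scrambled oligonucleotide contains a CpG, and its 2 mice had 5 and 4 Tlr9 counts (0.293 and 0.141 CPM), within the NT range. A fit without the low-count filter gave Tlr9 an adjusted p of at least 0.567 in each of the 9 comparisons.

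In the mice given the carrier without L9, some members lay above the NT range. In mice given Brush, 0% of all tested genes were called against NT, and no member was called (217 genes had an unadjusted p under 0.05, 1 of them a member, and DESeq2 called 86 genes). Tlr7 was at 0.932 and 0.793 CPM (log2 fold change 1.01 ± 0.66), Tlr13 at 0.799 and 0.991 CPM (1.47 ± 0.76) and Unc93b1 at 7.99 and 9.17 CPM (0.74 ± 0.28). Both mice lay above every NT mouse for these 3 genes and for Sting1 (2.86 and 3.07 CPM), with an adjusted p of 1 for each. The share of all tested genes without overlap between groups was not counted, here or in the other comparisons. Lack of overlap therefore does not set these members apart from other genes. Tlr8 was at 0.266 and 0.149 CPM, within the NT range (0.09 ± 0.99). With 2 mice the intervals were wide, for Tlr13 from -0.09 to 3.03.

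In mice given pacDNA-Scr, 0% of all tested genes were called, and no member was (182 genes had an unadjusted p under 0.05, 0 of them members, and DESeq2 called 311 genes). Tlr7 was at 0.762 and 0.81 CPM, above every NT mouse (log2 fold change 0.87 ± 0.66, adjusted p = 1). Tlr13, at 0.352 and 0.246 CPM, lay within the NT range (-0.1 ± 0.85, interval -1.85 to 1.64). Unc93b1 was at 6.21 and 6.34 CPM, also within the NT range (0.29 ± 0.29). Tlr3 was at 0.937 and 1.3 CPM, below the lowest NT mouse, with an adjusted p of 1.

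After free L9, the call rate against NT was 0.126% of tested genes (22 genes), and no member was called. The number of genes was 242 without mouse A, 38 without mouse B and 314 without mouse C, each with no member called. Tlr7 was at 0.755, 0.898 and 0.0894 CPM (log2 fold change 0.47 ± 0.59, adjusted p = 0.863), with mouse C, from the second deposited set, below every NT mouse. Without mouse C the value was 0.94 (adjusted p = 0.361). Tlr8 had 0, 0 and 1 count, 1 in all against 32 in the 8 NT mice. That is a ratio of 0.107 with an exact 95% counting interval of 0.00264 to 0.642. The edgeR fit, which takes in the spread between mice, gave an adjusted p of 0.459. All 3 mice were below every NT mouse for Tlr8, yet all 3 were at or under their floor of 3 counts. Unc93b1 was at 6.54, 8.25 and 3.49 CPM (0.25 ± 0.25).

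A single free L9 mouse, B, had high double-stranded RNA and DNA sensors. Its Ifih1 was 9.99 CPM (178 counts) against 2.67 and 3.04 CPM in mice A and C, its Tlr3 6.96 CPM (124 counts) against 2.21 and 1.16, and its Cgas 1.07 CPM (19 counts) against 0 and 0.268. These were the highest values of the 3 genes among all 30 libraries. The library itself stood apart: it had the fewest genes with a count (14485), the most mitochondrial counts (3745588 of 16782911), the lowest skeletal muscle marker sum (107000 CPM) and the highest adipocyte and B cell sums (347 and 2.08 CPM). The part of these in the sensor levels was not tested. Myd88 in the same mouse was the lowest of all libraries, at 1.57 CPM. The group's log2 fold changes were 0.65 ± 0.28 for Ifih1 (adjusted p = 0.469) and 0.95 ± 0.4 for Tlr3 (adjusted p = 0.463). Without mouse B they were -0.26 and -0.09.

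At the lower doses of pacDNA-L9 no member passed the test. At 21.2 mg/kg 0.0514% of tested genes were called (9 genes, all higher) and at 5.3 mg/kg 0% (250 genes at an unadjusted p under 0.05, 0 of them members, and 1 gene called by DESeq2). Without mouse B or mouse C at 21.2 mg/kg, and in the first deposited set, 2 genes were called. At 21.2 mg/kg 3 members, Tlr13, Tlr7 and Unc93b1, had an unadjusted p under 0.05. The members' median log2 fold changes were 0.65 (21.2 mg/kg) and 0.39 (5.3 mg/kg), beside 0.01 and 0.03 over all genes. Myd88, Ifih1, Sting1 and Tlr3 were between -0.1 and 0.27 at 21.2 mg/kg and between 0.21 and 0.35 at 5.3 mg/kg. Cgas was 0.92 ± 0.93 at 21.2 mg/kg, and -1 without mouse C, which is from the second deposited set and held 18 counts. At 5.3 mg/kg Cgas was 0.59 ± 0.87.

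At 5.3 mg/kg, pacDNA-L9 was also compared with free L9 and with pacDNA-Scr. Between pacDNA-L9 and free L9, 0.0114% of tested genes were called (2 genes) and no member. That number was 212 without free L9 mouse C, 145 in the first deposited set and 0 without any 1 of the 4 pacDNA-L9 mice, again with no member. Tlr8 differed most, with 0.165, 0.349, 0.573 and 0.107 CPM against 0, 0 and 0.0894 CPM. The groups did not overlap, but both lay around the floor: 26 counts in 4 mice against 1 in 3, a ratio of 15.4 with an exact 95% counting interval of 2.53 to 631. The fit, which takes in the spread between mice, did not call it (adjusted p = 0.452, edgeR). Tlr13 was 1.62 ± 0.85 higher (interval -0.13 to 3.36, adjusted p = 0.651). Between pacDNA-L9 and pacDNA-Scr, 0% of tested genes and no member were called (352 genes at an unadjusted p under 0.05, 0 of them members, and 330 called by DESeq2). Tlr13 was 1.36 ± 0.96 higher with L9 (interval -0.62 to 3.34, adjusted p = 0.889) and did not overlap between the 2 groups. These intervals do not show that the agents act alike.

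**Figure D3:**
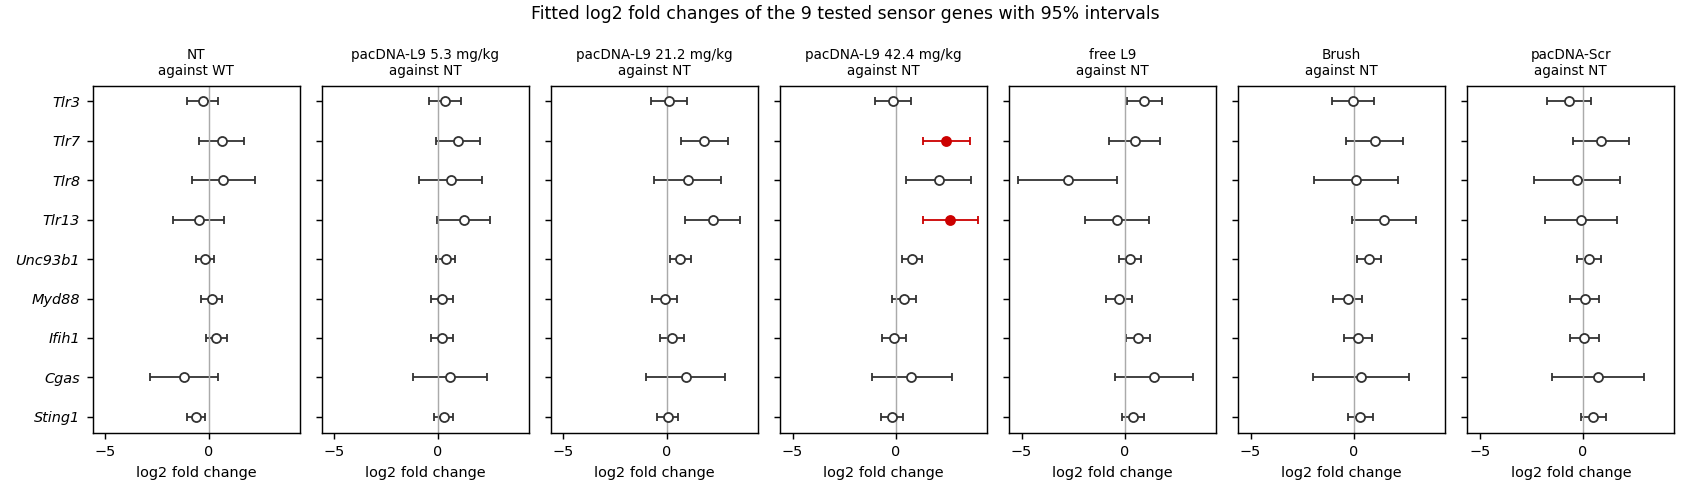
Log2 fold changes (points) with 95% intervals (bars) of the 9 tested members in each comparison with NT and in NT against WT. Red filled points passed the test, which Tlr7 (2.45) and Tlr13 (2.64) did at 42.4 mg/kg. The treated groups share the same NT mice.

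Between untreated HSA-LR and WT muscle no member passed the test, and 4.97% of all tested genes did (871 genes). Sting1 came closest. WT mice had 3.87, 2.53, 2.91, 3.55 and 5.5 CPM, and NT mice 1.95, 2.37 and 2.82 CPM as lowest, median and highest. Its log2 fold change was -0.62 ± 0.21 (95% interval -1.06 to -0.18, adjusted p = 0.102), and the groups overlapped. The unnumbered WT mouse held the highest value, and without it the log2 fold change was -0.43. Tlr7 was 0.65 ± 0.53, Tlr13 -0.47 ± 0.6, Tlr3 -0.29 ± 0.35 and Unc93b1 -0.17 ± 0.21, all with an adjusted p of at least 0.517. The median over members was -0.17 beside 0.03 over all genes.

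The summed macrophage markers and the summed Tlr7, Tlr8 and Tlr13 were both highest in mice A and B at 42.4 mg/kg. The 2 sums did not go together in every library. Mouse B at 5.3 mg/kg had a macrophage sum of 142 CPM and a receptor sum of 2.66 CPM, and mouse C at 42.4 mg/kg had 261 and 2.48 CPM. Both Brush mice had macrophage sums above the NT range, with Tlr8 within it. Of 10 macrophage markers, 7 rose at 42.4 mg/kg (Csf1r, Cd68, Cd163, C1qa, C1qb, C1qc and Lyz2), 2 at 21.2 mg/kg (Cd68 and Lyz2), and none in the other treated groups against NT. Both calls at 21.2 mg/kg ended without mouse B, without mouse C and in the first deposited set. Their summed level was 70.3 to 136 CPM in NT, 142 to 199, 127 to 283 and 261 to 384 CPM after the low, middle and high dose of pacDNA-L9, 205 to 221 with Brush, 114 to 168 with pacDNA-Scr, 64 to 108 with free L9 and 60.4 to 98.5 in WT. No macrophage marker was at 0 in any group. Summed Tlr7, Tlr8 and Tlr13 were 6.42, 6.73 and 2.48 CPM at 42.4 mg/kg. That was 1.85%, 1.75% and 0.95% of the macrophage sum, against 0.735% to 1.45% in NT and 0.204% to 1.86% in WT. With pacDNA-L9 this share was 0.675% to 1.88% at 5.3 mg/kg and 1.05% to 1.93% at 21.2 mg/kg. Mouse C at 42.4 mg/kg had the lowest macrophage sum of its group and the lowest Tlr7, Tlr8 and Tlr13. Without mouse B, 4 of the 7 were called (Cd68, C1qb, C1qc and Lyz2), and with column naming as a term 3 (Csf1r, Cd68 and Lyz2). Among other settings, Cd163 also lost its call with library size alone, with sex as a term, in the first deposited set and without mouse C. The part of these cells in the result was not tested.

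**Figure D4:**
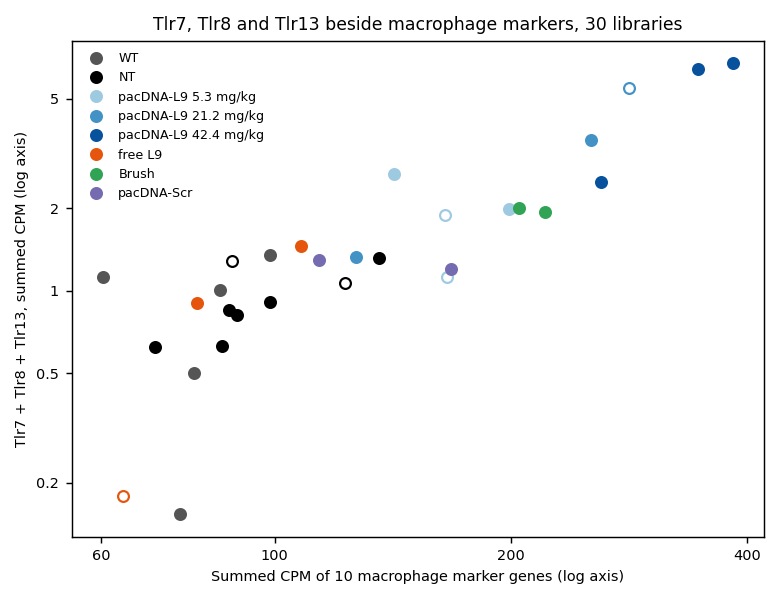
Summed CPM of Tlr7, Tlr8 and Tlr13 against the summed CPM of 10 macrophage markers in each of 30 libraries, both on log axes. Open points are the second deposited set. Libraries with the highest macrophage sums, pacDNA-L9 42.4 mg/kg A and B (347 and 384 CPM), also have the highest receptor sums (6.42 and 6.73 CPM).

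Markers of the other blood-derived cells were at low levels. Of the 6 T cell markers only Cd4 passed the filter, and it rose at 42.4 mg/kg (log2 fold change 3.55 ± 0.76, adjusted p = 0.00893, edgeR). Which libraries carried Cd4 through the filter was not checked, and no alternative fit was made for it. At this dose Cd8a and Trac were at 0, and the 6 markers summed to 1.69 to 1.89 CPM, against 0 to 1.9 CPM in NT. None of the B cell markers passed the filter, and Ms4a1 was at 0 in the 42.4 mg/kg group. Dendritic cell markers summed to 10.2 to 15.1 CPM at 42.4 mg/kg and 7.79 to 10.8 CPM in NT, with 0 of 5 tested markers called. Neutrophil markers summed to at most 3.72 CPM in any library, which was mouse B at 42.4 mg/kg. Their sums were 0.469 to 3.72 CPM at that dose and 0.127 to 1.25 CPM in NT. The 3 tested neutrophil markers had a median log2 fold change of 2.3 there, with 0 called. Ly6g was at 0 in every group except NT.

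Sex was read from Xist and Y-linked genes because the 3 receptors that stood out are X-linked. All 3 mice at 42.4 mg/kg were female, and NT held 4 females and 4 males. With sex as a term, Tlr7 was 2.06 (adjusted p = 0.048) and Tlr13 2.69 (adjusted p = 0.0489), both still called, and Tlr8 1.7 (adjusted p = 0.416). In the 24 libraries of the first deposited set alone, Tlr7 was 2.65 (adjusted p = 0.00577) and Tlr13 2.52 (adjusted p = 0.0154).

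Genes around the receptors were taken from 6 lists. Of 10 lysosomal proteases and nucleases that act upstream of endosomal receptors, 5 rose at 42.4 mg/kg and none fell. Ctss, a cysteine protease that cleaves Toll-like receptors in endosomes, went from 3.73 ± 1.44 CPM (SD, n = 8) to 25.9 ± 7.65 CPM (n = 3), a log2 fold change of 2.79 ± 0.32 (adjusted p = 7.47e-06). The others named by rule were Ctsl (0.86 ± 0.18), Lgmn (0.72 ± 0.15) and Ctsb (0.58 ± 0.13). The fifth, outside the rule, was Ctsk (1.26 ± 0.31). Ctss also rose at 21.2 mg/kg (1.93 ± 0.32, adjusted p = 0.0106), a call that ended without mouse B, without mouse C and in the first deposited set alone. Pld3, Pld4, Dnase2a and the RNase T2 genes, which trim the ligands, were not called. The median of the list at 42.4 mg/kg was 0.65 beside -0.06 over all genes.

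In the list of trafficking and signalling genes, 2 of 22 tested rose at 42.4 mg/kg. They were Slc15a4, an endolysosomal histidine transporter needed for Tlr7 and Tlr9 signalling (0.89 ± 0.18, adjusted p = 0.00613), and Ticam1, the adaptor of Tlr3 (0.92 ± 0.22, adjusted p = 0.0217). Among 15 tested interferon and NF-kB outputs, Nfkbia, the inhibitor that NF-kB induces, rose (1.53 ± 0.25, adjusted p = 0.000711), and Irf9, a subunit of the interferon-activated factor, fell by 0.9 ± 0.23 on the log2 scale (adjusted p = 0.0302). The median of that list was -0.6 beside -0.06. None of 12 tested genes of cytosolic RNA sensing, of 10 of cytosolic DNA sensing or of 7 cell surface receptors passed the test, and the medians of these lists were 0.1, 0.23 and 0.79. That of the trafficking and signalling list was 0.14. Of the 9 pathway genes called at this dose, 8 lost the call without mouse B and 8 with column naming as a term, Ctss being the exception in both. Without mouse A it was lost by Ctsb, Ctsk and Lgmn, and without mouse C by Ticam1 and Irf9. Irf9 also lost it with library size alone, with no filter on low counts, with only the groups compared, and without NT 1, NT 3 or NT 4. Ticam1 and Ctsb lost it with no filter and in the first deposited set. Ctsb and Ctsk lost it with library size alone, and Ctsk with sex as a term.

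In NT against WT, 3 of 22 trafficking and signalling genes rose: Irf5, the transcription factor downstream of Myd88 (25.8 ± 8.13 CPM, n = 8, against 4.72 ± 0.988 CPM, n = 5, log2 fold change 2.45 ± 0.25, adjusted p = 3.21e-07), Traf3 (0.53 ± 0.13) and Ikbkb (0.38 ± 0.09). With scaling by library size alone Traf3 and Ikbkb were not called, and Ikbkb was also not called with no filter on low counts, without WT 3, without WT 4, or in the mice numbered 1 to 4 with or without a block. Tlr5, the flagellin receptor of the cell surface, rose as well (1.43 ± 0.31, adjusted p = 0.0045). None of these genes was a sensor of nucleic acids, and the cytosolic lists held no call. In the groups given 5.3 mg/kg pacDNA-L9, free L9, Brush or pacDNA-Scr, none of the 6 lists held a call against NT.

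Members differed in how they varied between mice of one group. Over the 24 libraries of the first deposited set, deviations of log2 CPM from the group mean correlated at Pearson r = 0.85 between Tlr7 and Tlr8, 0.56 between Tlr7 and Unc93b1 and 0.36 between Tlr7 and Tlr13. At 42.4 mg/kg mouse C was low for both Tlr7 (0.736 CPM, against 3.38 and 2.95) and Tlr8 (0.194 CPM, against 1.08 and 1.24). Tlr8 was at or under the floor in 15 of all 30 libraries. No correlation was taken without the 42.4 mg/kg mice. Myd88 and Ifih1 were at r = -0.65. Free L9 mouse B, 1 of 2 mice of its group in this set, had the highest Ifih1 (9.99 CPM) and the lowest Myd88 (1.57 CPM) of all libraries. No correlation was taken without that library, for this pair or for the genes named next. The genes with the most similar deviations were Slc29a3, Sp100 and Mier1 for Tlr3 (r from 0.79 to 0.82), Set, Hpse and Capzb for Unc93b1 (0.8 to 0.83), and Rangap1, Mtarc2 and Tapbp for Myd88 (0.88 to 0.9). For Ifih1 they were Ro60, Ppp4r3b and Zfp994 (0.92 to 0.95), and for Sting1 they were Sbds, Crem and Gm40477 (0.8 to 0.92). These values carry no test, since the points share libraries and their depth.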

How the data were processed

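The authors deposited raw counts per mouse gene, made from poly(A)-enriched paired-end reads mapped to GRCm39. HISAT2 2.0.5 and DESeq2 are named in the submitters' processing notes, and Rsubread in the study's methods. The counting options, strand use and handling of multiply mapped reads are not given in the sources used here. All 30 columns of counts were used. Gene symbols, exon lengths and positions were taken from a GRCm39 annotation, which matched 56017 of 56748 genes.

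Counts were fitted in edgeR 4.0.16 (R 4.3.3) with 1 coefficient per group over all 30 libraries, TMM scaling, filterByExpr with a minimum count of 10, robust glmQLFit and glmQLFTest. P-values were adjusted by Benjamini-Hochberg over 17518 genes, and calls are adjusted p-values under 0.05. SEs are the log2 fold change over the root of the F statistic, and 95% intervals use its degrees of freedom. CPM values use TMM library sizes. The script was tested on simulated data.

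The members and gene lists were chosen with earlier results of these data known. Named genes were all 10 members, up to 4 called genes per list and comparison with the smallest adjusted p, and, for members of at least 1 CPM on average, the 3 genes with the most similar deviations (CPM plus 0.5, log2). Alternatives were DESeq2 1.42.0 and its size factors, other filters (no filter, or at least 10 counts in every library), library size alone, the first deposited set, the set, sex or column naming as terms, the groups compared alone, no robust estimation, the libraries that hold mitochondrial counts, a replicate block, and leaving out each mouse. Mice of pacDNA-L9 5.3 mg/kg and free L9 with the same letter, A to C, had correlated deviations (r = 0.536, 0.419 and 0.655). In both groups A and B are of the first set and C is of the second, so pairing by letter and set cannot be told apart.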

Additional observations from a re-analysis of the deposited data

Results flagged for a closer look

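Among 30 combinations of a member with a group of 4 to 8 mice (WT, NT and pacDNA-L9 5.3 mg/kg), 2 held a mouse far from the others by Dixon's gap over range, where chance alone gives about 1 in 20. NT 1 had 3.2 CPM of Tlr3, the next NT mouse 1.93 CPM and the lowest 1.33 CPM (gap over range 0.679, above the 95% critical value for 8 mice). The pacDNA-L9 5.3 mg/kg mouse A had 8.46 CPM of Unc93b1, the nearest of the other 3 had 6.32 CPM and the lowest 5.98 CPM (0.863, above the value for 4 mice).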

How the results depend on the processing

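At 42.4 mg/kg the number of members called was 2, and it was 0 where at least 10 counts were required in every library, which left out Tlr7 and Tlr13, and 1 (Tlr7) with column naming as a term in the first deposited set, where the cause was not tested. It was 3 with the deposited set as a term (adding Tlr8) and 3 with DESeq2 (adding Unc93b1). Leaving out 1 mouse gave 0 to 2 called members, 0 without mouse A or mouse B. In the other 8 comparisons the number was 0 under each alternative run. The column naming term also turned Ifih1 to 0.07 and Cgas to -0.07 at 42.4 mg/kg. Cgas at 21.2 mg/kg turned to -1.08 in the first deposited set, -1.02 with the column naming term and -1.07 without libraries lacking mitochondrial counts, fits that all leave out mouse C, and ran from -1 to 1.41 when 1 mouse was left out. Leaving out 1 mouse changed the sign of some uncalled values: at 42.4 mg/kg Tlr3 ran from -0.64 to 0.18 and Cgas from -0.6 to 1.17. In free L9 Tlr3 ran from -0.09 to 1.36, Unc93b1 from -0.05 to 0.52 and Ifih1 from -0.26 to 0.97. Unc93b1 in NT against WT ran from -0.25 to 0.01, Tlr8 with Brush from -0.36 to 0.45 and Tlr13 with pacDNA-Scr from -0.36 to 0.14.

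Shared numbers of WT and NT mice (1 to 4) did not pair them (r from -0.008 to 0.19), and with these numbers as a replicate block 0 members and 631 genes were called, against 0 and 680 in the same mice with no block. The block, run in 3 comparisons, changed no call of a member. Between pacDNA-L9 5.3 mg/kg and pacDNA-Scr, letters A and B were not paired either (r = -0.009 and 0.099), and the block gave 5 called genes against 0. With only the groups compared, Tlr8 at 21.2 mg/kg was filtered out and has no value. Counts of genes called over the whole table moved more: at 42.4 mg/kg from 450 to 110 with column naming and 1380 with DESeq2, and in NT against WT from 871 to 1311 with only those groups and 1971 with DESeq2. With free L9 they ran from 0 (column naming, or only the groups compared) to 397 (without libraries lacking mitochondrial counts), against 22, and at 21.2 mg/kg from 0 (only the groups compared) to 16 (DESeq2), against 9. Between pacDNA-L9 5.3 mg/kg and free L9 they ran from 0 (sex or column naming as a term, among others) to 212 (without free L9 mouse C), against 2. Depth limits Tlr8, Tlr9 and Cgas most.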
